A study of Homo sapiens with 9 samples.

Results

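The genes described here are the transcription factor ATF4, its partner factors CEBPG and DDIT3, and 7 genes of the amino acid response (ASNS, SLC3A2, SLC7A5, DDIT4, TRIB3, CHAC1 and VLDLR). They were taken by symbol from a table of 30017 genes, and all 10 were present. All 10 also passed the filter on low counts, which left 12712 genes in the tests. The counts came from RNA-sequencing of MOLM13, a human line of monocytic acute myeloid leukemia cells that carries an MLL fusion. Cells were transduced with pLKO-GFP lentivirus carrying a control short hairpin RNA (sh-Control) or 1 of 2 hairpins against the RNA helicase DDX41 (shDDX41 #1 and shDDX41 #2), and were sorted 4 days later. Each group held 3 libraries, named A, B and D. All groups carried the vector and all came from 1 cell line. The study's methods say in general that quantified assays were repeated 3 times as biological replicates. No source used here says whether the letters A, B and D mark separate transductions. The p-values therefore measure the spread between these libraries, which may be technical.

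ATF4 is a basic leucine zipper (bZIP) factor at the end of the integrated stress response. When amino acids run short, or when proteins misfold in the endoplasmic reticulum, kinases phosphorylate the initiation factor eIF2, general translation slows and the ATF4 mRNA is translated more efficiently. ATF4 then binds C/EBP-ATF composite sites, as a dimer with factors such as CEBPG, and turns on genes for amino acid synthesis, uptake and tRNA charging. Its control is largely translational, so the mRNA values given here do not measure ATF4 protein.

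The composite site to which ATF4 binds in amino acid response genes holds the letters TGATGNAA. Both strands of RefSeq promoter windows (GRCh38.p14, 250 bases before to 50 after each annotated start) were searched for these letters. All 10 genes had windows, 18 in all, and 4 of the genes had a match. Among all 35116 windows in the reference, 1270 (3.62%) held a match, and counted by gene 1217 of 27305 (4.46%) did. Windows were matched by symbol to 9005 of the tested genes, of which 2.59% held a match. The 30 bases around each match are shown because TGATGNAA lies within the composite site named above. They run 5′ to 3′ on the strand of the gene, with the match in capitals.
ASNS: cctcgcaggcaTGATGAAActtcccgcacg
CHAC1: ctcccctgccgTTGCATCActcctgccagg
CEBPG: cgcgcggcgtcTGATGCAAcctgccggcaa
SLC3A2: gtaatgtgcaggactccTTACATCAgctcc
Positions count from the annotated start, with negative numbers upstream. The ASNS match lay at -68 to -61 (chr7:97872458-97872487 for the printed bases, minus strand), in the gene-strand orientation. In CEBPG it lay at -42 to -35 from 1 of the annotated starts (chr19:33374060-33374089, plus strand), again on the gene strand. The CHAC1 match was on the opposite strand, at -209 to -202 (chr15:40953251-40953280, plus strand). For SLC3A2 the match was also on the opposite strand and lay after 1 of the annotated starts, at bases 38 to 45 of the transcript (chr11:62881719-62881748, plus strand). The cAMP response element letters TGACGTCA, found in 1.85% of all windows, occurred in none of the 18 windows of these genes. CCACG, a short site within endoplasmic reticulum stress elements, occurred in 38.1% of all windows and in 13 of the 18. Counted by gene, 8 of the 10 held it, and so did 58.0% of the tested genes with windows. These are matches of letters only, since no binding was measured.

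The 9 libraries held 16385238 to 20510032 counts. Levels are given as CPM, that is counts scaled to a common library size after TMM correction, as mean ± SD of 3 libraries. DDX41 itself stood at 115 ± 1.76 CPM with sh-Control, 11.7 ± 1.56 with shDDX41 #1 and 40.4 ± 1.85 with shDDX41 #2. Of 10 myelomonocytic markers, 9 passed the filter, with CD14 near 0. Their summed level was 1933 to 1989 CPM with sh-Control, 1963 to 1974 with shDDX41 #1 and 2861 to 2878 with shDDX41 #2. LYZ, the monocyte lysozyme, accounted for most of that difference, at 931 ± 54.9, 870 ± 40.0 and 1818 ± 20.6 CPM in the same order. The summed T and NK cell markers stayed between 12.1 and 26.8 CPM in every library, almost all from NKG7, and the fibroblast and epithelial markers between 14.6 and 18.5 CPM, almost all from KRT18. The B cell markers summed to at most 1.26 CPM and the erythroid and megakaryocytic ones to at most 0.789 CPM, and CD3G, CD2, MS4A1, PAX5, HBB, HBA1, PF4 and COL1A2 had 0 counts. Library D of shDDX41 #1 differed most from its group.

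With shDDX41 #2, the hairpin that left more DDX41 mRNA, 9 of the 10 genes fell against sh-Control (13.4% of all tested genes did), and all 10 log2 fold changes were below 0. With shDDX41 #1, 5 fell and 1 rose (24.1% and 23.7% of all tested genes). The 10 genes were chosen with earlier results of these data known, so these counts beside the shares of all genes are a description only. DDIT4, ASNS, CHAC1, TRIB3 and SLC7A5 fell with both hairpins. ATF4, DDIT3, SLC3A2 and CEBPG fell with shDDX41 #2 and did not pass the test with shDDX41 #1, and VLDLR rose with shDDX41 #1 and did not pass with shDDX41 #2. Both comparisons use the same sh-Control libraries, so they are not independent of each other. A gene was called where edgeR's quasi-likelihood test, adjusted over all 12712 genes by the Benjamini-Hochberg method, gave a value under 0.05, and every adjusted p in the text is from that fit.

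Much of the transcriptome differed between the groups. Of all tested genes, 47.8% were called between shDDX41 #1 and sh-Control, beside 6 of the 10 genes here. Under upper quartile scaling 3849 of 6302 calls of that comparison were higher, against 3010 of 6078 in the fit reported here. Between shDDX41 #2 and sh-Control 25.0% were called (11.6% higher), beside 9 of 10. The median log2 fold change of the 10 genes was -0.16 with shDDX41 #1 and -0.46 with shDDX41 #2, while that of all tested genes was 0.012 and -0.011. The 3 libraries of each group did not overlap for 6 of the 10 genes with shDDX41 #1 and for 9 with shDDX41 #2, and the same was true of 53.1% and 43.8% of all tested genes. The share of the 10 genes called with shDDX41 #1 was near its background. In shDDX41 #2 the fall went together with the higher summed myelomonocytic markers given above, a rise that lay mostly in LYZ. Mean MPO, ITGAM and HOXA9 were also above sh-Control, while mean FLT3, CD33, SPI1, CSF1R and MEIS1 were below it. The part of these markers in the fall was not tested. In bulk RNA, fewer cells that express a gene and less of its RNA per cell cannot be told apart.

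**Figure D1:**
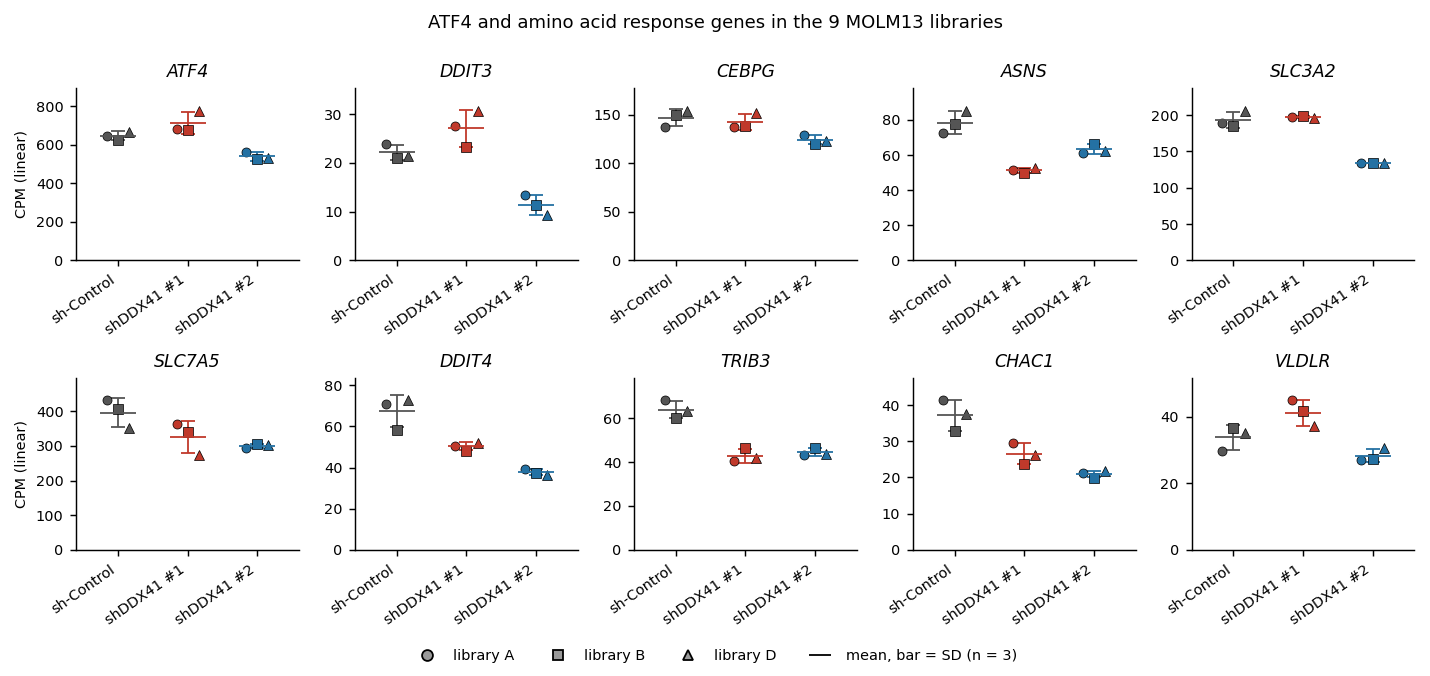
Level of each of the 10 genes in CPM (linear axis from 0, a separate scale for each gene) in the 9 libraries. Points are libraries A, B and D, horizontal marks are means and bars the SD of 3 libraries. With shDDX41 #2 all genes but VLDLR lay below every sh-Control library, and with shDDX41 #1 this held for DDIT4, ASNS, CHAC1 and TRIB3.

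Among the transcription factors, ATF4 was the most abundant of all 10 genes per length. Libraries A, B and D had 648, 624 and 669 CPM with sh-Control, 683, 679 and 779 with shDDX41 #1, and 565, 524 and 530 with shDDX41 #2. The 3 groups did not overlap, with shDDX41 #1 on top and shDDX41 #2 at the bottom. The difference of shDDX41 #1 from sh-Control, a log2 fold change of 0.14 (SE 0.0687), did not pass the test (adjusted p = 0.102), though it did under upper quartile scaling. With shDDX41 #2 ATF4 fell by 0.26 on the log2 scale (SE 0.0688, adjusted p = 0.0121), that is by 16.6%. That call was lost without library B of shDDX41 #2 (adjusted p = 0.0624) or without its library D (adjusted p = 0.0554).

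DDIT3 encodes CHOP, a C/EBP family factor that ATF4 induces under prolonged stress and that is known for promoting cell death. It showed the widest separation between the hairpins. Levels were 24, 21.0 and 21.5 CPM with sh-Control, 27.5, 23.2 and 30.8 with shDDX41 #1, and 13.5, 11.4 and 9.39 with shDDX41 #2. All shDDX41 #2 libraries were lower than any other library, while shDDX41 #1 overlapped sh-Control. The fall with shDDX41 #2 was 0.96 on the log2 scale (SE 0.132, adjusted p = 0.000114), to 0.516 of the control level. With shDDX41 #1 it stood 0.29 above the control on that scale (SE 0.124), which did not pass the test (adjusted p = 0.0650), though it did under upper quartile scaling, with no filter, with the replicate letter as a block (adjusted p = 0.0396), and without library B of shDDX41 #1. Exons of DDIT3 share 355 bases with MARS and 58 with MBD6, which lie on the opposite strand in GENCODE 29. The labels name a stranded library kit and the study's methods an unstranded one. Whether reads of MARS and DDIT3 in the shared bases were kept apart is therefore not known. MARS, the methionyl-tRNA synthetase, had log2 fold changes of -0.63 with shDDX41 #1 and -0.25 with shDDX41 #2.

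CEBPG, a C/EBP factor without a transactivation domain of its own, is a dimer partner of ATF4. The sh-Control libraries had 137, 149 and 154 CPM, those of shDDX41 #1 137, 138 and 152, and those of shDDX41 #2 129, 120 and 123. Only shDDX41 #2 stood apart, below the other 6 libraries. CEBPG fell with it by 0.24 on the log2 scale (SE 0.0680, adjusted p = 0.0161), a call that was lost when library B or D of either sh-Control or shDDX41 #2 was left out. The log2 fold change with shDDX41 #1 was -0.05 (SE 0.0679, adjusted p = 0.602) and turned to 0.03 under upper quartile scaling.

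ASNS encodes asparagine synthetase, the enzyme that makes asparagine from aspartate and glutamine and a standard readout of the amino acid response. It had the largest fall of the 10 genes with shDDX41 #1, and was the only one called lower with shDDX41 #1 than with shDDX41 #2. Its CPM was 72.3, 77.8 and 85.4 with sh-Control, 51.2, 49.9 and 52.5 with shDDX41 #1, and 60.9, 66.5 and 62.2 with shDDX41 #2. No group overlapped another, and the hairpin with the lowest DDX41 also had the lowest ASNS. The falls were 0.62 (SE 0.0729, adjusted p = 7.63e-06) and 0.31 (SE 0.0718, adjusted p = 0.00556) on the log2 scale for shDDX41 #1 and shDDX41 #2.

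SLC3A2 and SLC7A5 encode the heavy chain (CD98hc) and the light chain (LAT1) of an exchanger that brings leucine and other large neutral amino acids into the cell. For SLC3A2 the libraries A, B and D held 190, 185 and 206 CPM with sh-Control, 198, 199 and 197 with shDDX41 #1, and 134, 134 and 135 with shDDX41 #2. The shDDX41 #2 libraries differed from each other by less than 1 CPM and lay far below the other 6. SLC3A2 fell with shDDX41 #2 by 0.53 on the log2 scale (SE 0.0608, adjusted p = 2.45e-05). With shDDX41 #1 its log2 fold change was 0.03 with an approximate 95% confidence interval from -0.09 to 0.15 (adjusted p = 0.685).

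SLC7A5 had 432, 406 and 351 CPM with sh-Control, 363, 341 and 272 with shDDX41 #1, and 293, 305 and 302 with shDDX41 #2. The sh-Control and shDDX41 #1 libraries overlapped and were wider apart than those of shDDX41 #2, which lay below every control library. SLC7A5 fell by 0.28 (SE 0.0960, adjusted p = 0.0237) and by 0.40 (SE 0.0960, adjusted p = 0.00691) on the log2 scale. The first of these calls was lost under upper quartile scaling, with only the 6 libraries compared, and without sh-Control A, sh-Control B or shDDX41 #1 D. The light chain has 2 pseudogenes in the table, SLC7A5P1 and SLC7A5P2, with 0.538% and 0.407% of its counts, and how reads shared between them were assigned is not given in the sources used here.

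The log2 ratio of SLC7A5 to SLC3A2 CPM was 1.19, 1.13 and 0.76 with sh-Control, 0.87, 0.77 and 0.47 with shDDX41 #1, and 1.12, 1.19 and 1.16 with shDDX41 #2. The ratio with shDDX41 #2 lay within the range of the controls, and that with shDDX41 #1 reached below it but overlapped it through sh-Control D. The mean difference of shDDX41 #1 from sh-Control was -0.32 (two-sided exact permutation p = 0.3), and that of shDDX41 #2 was 0.13 (exact permutation p = 0.7). Between the hairpins the ratios did not overlap, with a mean difference of -0.45 (exact permutation p = 0.1, the smallest that 3 against 3 libraries can give).

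DDIT4, TRIB3 and CHAC1 are also ATF4 targets. DDIT4 encodes REDD1, which lowers the activity of the growth kinase complex mTORC1. Its levels were 70.8, 58.4 and 72.7 CPM with sh-Control, 50.6, 48.2 and 52.1 with shDDX41 #1, and 39.2, 37.3 and 36.4 with shDDX41 #2. The 3 groups were stepped without overlap. The falls were 0.42 (SE 0.0820, adjusted p = 0.000675) and 0.84 (SE 0.0831, adjusted p = 5.82e-06) on the log2 scale, or 25.3% and 44.1%.

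CHAC1 degrades the antioxidant glutathione and is among the genes most closely tied to ATF4 and CHOP. It had 41.4, 32.8 and 37.4 CPM with sh-Control, 29.6, 23.8 and 26.2 with shDDX41 #1, and 21.2, 20.0 and 21.7 with shDDX41 #2. The steps had the same order as those of DDIT4. CHAC1 fell by 0.49 (SE 0.0992, adjusted p = 0.000944) and by 0.83 (SE 0.10, adjusted p = 3.75e-05) on the log2 scale.

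TRIB3 encodes a pseudokinase that is induced by ATF4 and CHOP and dampens their activity. Libraries A, B and D held 68.2, 60.2 and 63.3 CPM with sh-Control, 40.4, 46.6 and 41.8 with shDDX41 #1, and 43.1, 46.6 and 43.6 with shDDX41 #2. Both hairpins were below all controls and overlapped each other. The falls were 0.57 (SE 0.0759, adjusted p = 2.21e-05) and 0.52 (SE 0.0753, adjusted p = 0.000166) on the log2 scale.

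VLDLR, the very low density lipoprotein receptor, has been described as induced through ATF4 under stress, and it was the only one of the 10 genes that rose in any comparison with sh-Control. The libraries held 29.6, 36.7 and 35.1 CPM with sh-Control, 44.9, 41.5 and 37.1 with shDDX41 #1, and 27.0, 27.2 and 30.5 with shDDX41 #2. All shDDX41 #1 libraries lay above the controls, narrowly so for library D, and shDDX41 #2 overlapped the controls. VLDLR rose by 0.29 on the log2 scale with shDDX41 #1 (SE 0.0958, adjusted p = 0.0229), a call that was lost without sh-Control A or shDDX41 #1 A. With shDDX41 #2 the value was -0.26 (SE 0.0974, adjusted p = 0.0626), and it passed the test with no filter on low counts, with only the 6 libraries compared, and without sh-Control A or shDDX41 #1 D. An antisense gene, VLDLR-AS1, shares 738 exon bases with it but had only 79 counts over all 9 libraries.

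In the direct comparison of the hairpins, 8 of the 10 genes differed, 7 higher and 1 lower with shDDX41 #1. Of all tested genes, 48.8% were called there, 24.6% higher and 24.2% lower with shDDX41 #1. The library values did not overlap for 8 of the 10 genes and for 57.7% of all tested genes. The median log2 difference, shDDX41 #1 minus shDDX41 #2, was 0.37 over the 10 genes and 0.014 over all genes. DDIT3 differed most, at 1.25 (SE 0.131, adjusted p = 2.31e-06), or 2.37-fold. SLC3A2 followed at 0.56 (SE 0.0608, adjusted p = 3.09e-06) and VLDLR at 0.55 (SE 0.0969, adjusted p = 0.000288).

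DDIT4 differed between the hairpins by 0.42 (SE 0.0842, adjusted p = 0.000815) and ATF4 by 0.40 (SE 0.0689, adjusted p = 0.000212). The differences of CHAC1, 0.34 (SE 0.103, adjusted p = 0.0128), and CEBPG, 0.20 (SE 0.0682, adjusted p = 0.0252), were smaller. CHAC1 lost its call without shDDX41 #1 A or shDDX41 #2 B, and CEBPG without shDDX41 #1 D, shDDX41 #2 B or shDDX41 #2 D. ASNS was the gene with the opposite sign, at -0.30 (SE 0.0733, adjusted p = 0.00307). TRIB3 differed by -0.05 with an approximate 95% confidence interval from -0.20 to 0.10 (adjusted p = 0.609). SLC7A5 differed by 0.12 with an interval from -0.07 to 0.31 (adjusted p = 0.329). Without shDDX41 #1 D the difference of SLC7A5 was 0.23 and passed the test (adjusted p = 0.0132).

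**Figure D2:**
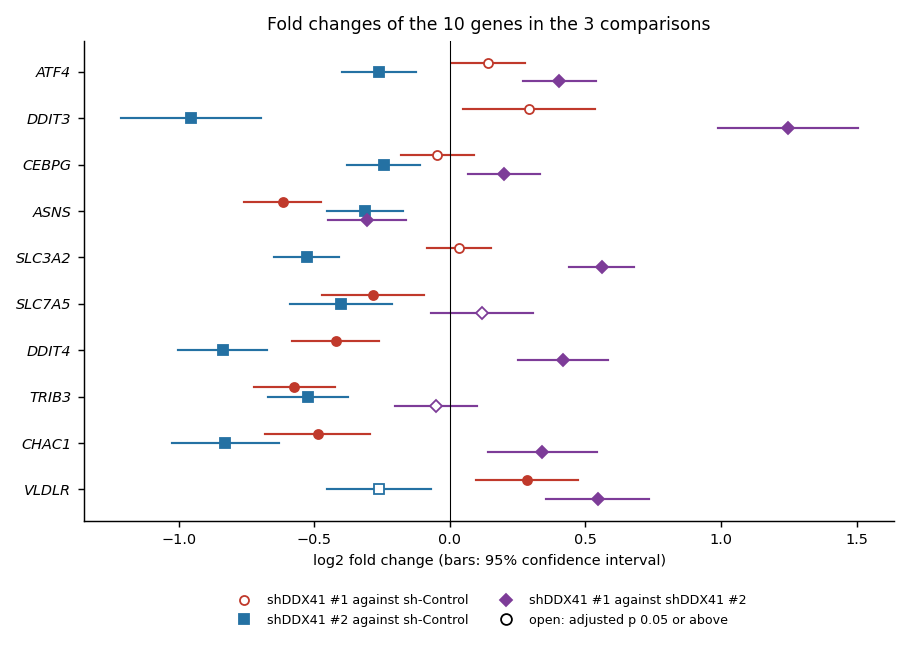
Log2 fold change of each gene for shDDX41 #1 against sh-Control (circles), shDDX41 #2 against sh-Control (squares) and shDDX41 #1 against shDDX41 #2 (diamonds), with bars for the 95% confidence interval. Filled symbols passed an adjusted p under 0.05. The squares are all left of 0, while the circles run from -0.62 for ASNS to 0.29 for DDIT3 and VLDLR.

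Levels of different genes can be compared only per length, so CPM was divided by the length of all annotated exons of each gene in GENCODE 29 (GRCh38). This length is an approximation because the annotation used for counting is not given in the sources used here. With sh-Control, ATF4 (chr22:39519695-39522685) had 257 ± 9.05 CPM per kb. SLC7A5 (chr16:87830023-87869488) came next at 83.5 ± 8.74 and SLC3A2 (chr11:62856102-62888875) at 37.4 ± 2.19 CPM per kb. CEBPG (chr19:33373330-33382686) at 33.3 ± 2.01 and DDIT4 (chr10:72273920-72276036) at 32.7 ± 3.77 CPM per kb did not differ beyond their spread. TRIB3 (chr20:362835-397559), CHAC1 (chr15:40952962-40956519), ASNS (chr7:97852118-97872542) and DDIT3 (chr12:57516588-57521737) lay together between 17.0 and 18.6 CPM per kb, within 1 another's spread. VLDLR (chr9:2621834-2660053) was lowest at 3.62 ± 0.400 CPM per kb. With shDDX41 #2 the level of DDIT3 was 8.72 ± 1.55 CPM per kb and that of ASNS 14.2 ± 0.654, no longer within their spread of each other. With shDDX41 #1 DDIT3 stood at 20.8 ± 2.91 and ASNS at 11.5 ± 0.300 CPM per kb, in the opposite order.

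The patterns over the 9 libraries were compared by Pearson's correlation of log2 CPM (prior count 2). The 9 points fall into 3 groups that share a hairpin, so the coefficients describe the group pattern and carry no p. ATF4 was most like DDIT3 (r = 0.96) and SLC3A2 (0.90) among the 10 genes, followed by CEBPG (0.83) and VLDLR (0.72). DDIT4 and CHAC1 were alike at 0.96. TRIB3 was most like ASNS (0.83) and CHAC1 (0.79), and its r with ATF4 was 0.06. With ASNS the r of ATF4 mRNA was -0.28, although both genes fell with shDDX41 #2.

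**Figure D3:**
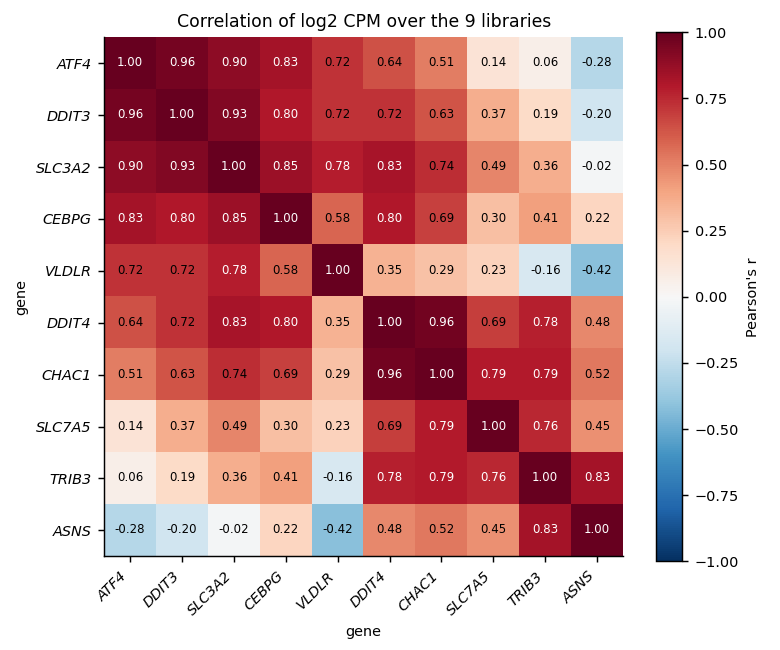
Pearson's r between the log2 CPM of each pair of the 10 genes over the 9 libraries, from -1 (blue) to 1 (red), with the value in each cell. ATF4, DDIT3, SLC3A2, CEBPG and VLDLR share values of 0.58 to 0.96, and ASNS has values from -0.42 to 0.22 with these 5.

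Over all tested genes, those most like ATF4 were CYHR1 (r = 0.99), NOP16 (0.99), DDX39A (0.98), C16orf91 (0.98) and C1orf216 (0.98). NOP16 is a nucleolar protein and DDX39A an RNA helicase of mRNA export. BAG2, a chaperone partner of HSP70, was nearest to DDIT3 (0.99), NAE1, a subunit of the NEDD8 activating enzyme, to ASNS (0.995), and GPT2, an alanine transaminase, was second nearest to TRIB3 (0.98). NARS, the asparaginyl-tRNA synthetase, was also among the 3 nearest to ASNS (0.99). The coefficients of the 32 genes nearest to a member ran from 0.964 to 0.995.

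In all, 12 further lists of genes around the pathway were counted in the same fit, with 153 genes tested and none of the 10 genes above among them. Together 27 of the 153 rose and 71 fell with shDDX41 #1, and 11 rose and 46 fell with shDDX41 #2. Their median log2 fold changes were -0.20 and -0.12. A few genes stand in more than 1 list. The shares of all genes given above (23.7% higher and 24.1% lower, 11.6% and 13.4%) are the background for each list.

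Of 8 tested genes that make serine and glycine and feed the mitochondrial folate cycle, a branch that ATF4 drives, 6 fell with shDDX41 #1 and 4 with shDDX41 #2. None rose in edgeR, DESeq2 or limma, nor at an unadjusted p under 0.05 (0 of 8). PHGDH, the first enzyme of serine synthesis, had 124 ± 2.09 CPM with sh-Control, 69.9 ± 3.09 with shDDX41 #1 and 94.5 ± 4.22 with shDDX41 #2. PSAT1, the second, had 219 ± 5.74, 125 ± 3.14 and 158 ± 9.49 CPM. ALDH1L2, a mitochondrial folate dehydrogenase, had log2 fold changes of -1.49 (adjusted p = 2.29e-08) and -0.67 (adjusted p = 0.000110). MTHFD1L fell by 1.06 and 0.27, and SHMT1, the cytosolic serine hydroxymethyltransferase, fell by 0.90 with shDDX41 #1 (adjusted p = 4.35e-06) and had -0.01 with shDDX41 #2 (adjusted p = 0.951).

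Of 13 cytosolic aminoacyl-tRNA synthetases, which charge tRNAs with amino acids, 9 fell and 2 rose with shDDX41 #1, and 7 fell with shDDX41 #2. None rose with shDDX41 #2 in edgeR, DESeq2 or limma, nor at an unadjusted p under 0.05 (0 of 13). LARS, for leucine, fell by 0.62 with shDDX41 #1 (adjusted p = 9.33e-07) and had -0.10 with shDDX41 #2 (adjusted p = 0.219). GARS, for glycine, fell by 0.61 with shDDX41 #1 (adjusted p = 7.52e-07) and had -0.12 with shDDX41 #2 (adjusted p = 0.129). AARS, IARS and CARS fell with both, by 0.39, 0.35 and 0.28 with shDDX41 #1 and by 0.28, 0.28 and 0.35 with shDDX41 #2. The count of 7 for shDDX41 #2 was 3 without sh-Control B, 4 without shDDX41 #2 B and 2 without shDDX41 #2 D. That of 2 for shDDX41 #1 was 1 without sh-Control B and with only the 6 libraries compared.

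Among 17 tested genes of a list of other reported ATF4 targets, 9 fell with each hairpin, and 2 rose with shDDX41 #1. None rose with shDDX41 #2 in edgeR, DESeq2 or limma (1 at an unadjusted p under 0.05, and 1 called without sh-Control A). The count of 2 with shDDX41 #1 was 1 without sh-Control B or D or shDDX41 #1 A or B. CBS, which makes cystathionine from homocysteine, had 5.36 ± 2.44 CPM with sh-Control, 2.19 ± 0.976 with shDDX41 #1 and 1.69 ± 0.254 with shDDX41 #2, and fell with both (adjusted p = 0.00561 and 0.00286). STC2, a secreted stress glycoprotein, was at 5.42 ± 0.854 and 5.42 ± 0.598 CPM with sh-Control and shDDX41 #1 and at 2.33 ± 0.375 with shDDX41 #2 (adjusted p = 0.000252). VEGFA, the vascular growth factor, fell by 0.48 and 0.78 on the log2 scale.

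Of 15 other amino acid transporters tested, 5 rose and 6 fell with shDDX41 #1, and 2 rose and 6 fell with shDDX41 #2. The count of 5 was 3 when shDDX41 #1 A or either of sh-Control B and D was left out. That of 2 was 1 without sh-Control B or D or shDDX41 #2 A or B, and also with no scaling factors. SLC7A11, the cystine importer that pairs with SLC3A2, had 20.2 ± 1.32 CPM with sh-Control, 8.72 ± 1.65 with shDDX41 #1 and 17.5 ± 1.03 with shDDX41 #2. SLC38A1, a glutamine transporter, had 174 ± 15.4, 85.4 ± 13.2 and 172 ± 3.36 CPM. Both fell with shDDX41 #1 (adjusted p = 2.01e-06 and 8.59e-07) and did not pass the test with shDDX41 #2 (adjusted p = 0.214 and 0.951). SLC43A2, another carrier of large neutral amino acids, rose with both, by 0.30 and 0.60 on the log2 scale, and SLC38A5 fell with both, by 0.55 and 0.44.

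Upstream of ATF4, 7 of 11 eIF2 kinases, phosphatase subunits and regulators fell and 2 rose with shDDX41 #1, and without sh-Control B 4 fell. None was called with shDDX41 #2 in the edgeR fit reported here, DESeq2 or limma (1 higher at an unadjusted p under 0.05). However, 1 was called higher without sh-Control A and 2 without shDDX41 #1 D. In edgeR 1 was also called higher with no filter, only the 6 libraries compared, the replicate block or upper quartile factors. IMPACT, an inhibitor of the amino acid sensing kinase GCN2, had 62.7 ± 4.27 CPM with sh-Control, 25.8 ± 3.63 with shDDX41 #1 and 58.0 ± 0.850 with shDDX41 #2. PPP1R15A, which encodes the GADD34 subunit that restores translation by removing the phosphate from eIF2, was at 103 ± 22.2, 182 ± 12.4 and 109 ± 4.11 CPM and rose with shDDX41 #1 by 0.82 (adjusted p = 2.68e-05). EIF2AK3, the kinase PERK, fell with it by 0.49 (adjusted p = 0.00291).

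In the list of tribbles and apoptosis partners of CHOP, 4 of 7 rose and 1 fell with shDDX41 #1, and 2 rose and 1 fell with shDDX41 #2. The last of these was not called without sh-Control A or D or any 1 of the shDDX41 #2 libraries. TRIB1, a relative of TRIB3, had 56.3 ± 12.7 CPM with sh-Control, 156 ± 20.4 with shDDX41 #1 and 55.4 ± 4.78 with shDDX41 #2. Its log2 fold change with shDDX41 #1 was 1.47 (adjusted p = 4.36e-07), whereas that of TRIB3 was -0.57. BBC3, the death gene PUMA, rose with shDDX41 #1 by 0.64 (adjusted p = 0.000242) and had -0.03 with shDDX41 #2 (adjusted p = 0.873). BCL2L11, which encodes BIM, rose with both, by 0.47 and 0.41, and ERO1L, an oxidase of the endoplasmic reticulum, fell with shDDX41 #1 by 0.68 (adjusted p = 7.52e-07).

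The other arms of the unfolded protein response, through XBP1 and ATF6, had 12 of 18 genes lower and 2 higher with shDDX41 #1, and 6 lower with shDDX41 #2. None was higher with shDDX41 #2 in edgeR, DESeq2 or limma, nor at an unadjusted p under 0.05 (0 of 18). CALR, the chaperone calreticulin, had 1786 ± 63.0 CPM with sh-Control, 775 ± 36.0 with shDDX41 #1 and 1566 ± 76.4 with shDDX41 #2. HSPA5, the chaperone BiP, fell by 0.49 and 0.35 on the log2 scale, and MANF by 0.87 and 0.51. The count of 6 for shDDX41 #2 was 3 without sh-Control D, shDDX41 #2 A or shDDX41 #2 B and 2 without shDDX41 #2 D, and that of 2 for shDDX41 #1 was 1 without sh-Control D or shDDX41 #1 B. Of 15 hypoxia-responsive genes, a response that DDIT4 is known to share, 10 fell and 1 rose with shDDX41 #1, and 8 fell with shDDX41 #2. None rose with shDDX41 #2 in edgeR, DESeq2 or limma (1 at an unadjusted p under 0.05). The log2 fold changes of ALDOC, a glycolytic aldolase, were -1.15 and -2.55, those of PFKFB4, a regulator of glycolysis, -1.46 and -2.42, and those of SLC2A3, a glucose transporter, -0.58 and -1.39, all called.

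For 4 lists the counts were closer to the background. Of 13 other bZIP factors 3 rose and 3 fell with shDDX41 #1, and 1 rose and 2 fell with shDDX41 #2. With shDDX41 #2 the count of falls was 5 without shDDX41 #1 D and 1 without sh-Control A or D, shDDX41 #1 A or B, or shDDX41 #2 A or B. It was 4 with only the 6 libraries compared. With the DESeq2 Wald test, DESeq2 size factors, no filter or upper quartile factors it was 1. The rise was lost without any 1 library of sh-Control or shDDX41 #2. ATF3 rose with shDDX41 #1 by 0.49 (adjusted p = 0.0226) and had 0.00 with shDDX41 #2 (adjusted p = 0.999), and ATF5 fell with both, by 0.28 and 0.41. Of 24 mTORC1 nutrient sensing genes 6 rose and 4 fell with shDDX41 #1, and 3 rose and 3 fell with shDDX41 #2. The count of 6 was 3 without sh-Control B or shDDX41 #1 A. The rises with shDDX41 #2 were 5 without shDDX41 #1 D, with only the 6 libraries compared or with the replicate block. Without shDDX41 #2 D they were 1. SESN1, a leucine sensor of the sestrin family, rose by 0.94 and 0.36, and FLCN, a regulator of Rag GTPases, rose by 0.28 with shDDX41 #1 and fell by 0.74 with shDDX41 #2. Of 9 glutathione genes 2 rose and 3 fell with shDDX41 #1. With shDDX41 #2 1 rose, and none fell in edgeR, DESeq2 or limma (1 at an unadjusted p under 0.05). Without sh-Control A 2 rose and 1 fell, and under upper quartile factors 2 rose. GGT5, a gamma-glutamyl transferase, rose by 1.47 and 1.34. Of 8 LDL receptor family genes, relatives of VLDLR, 3 fell with shDDX41 #1, and 2 rose and 2 fell with shDDX41 #2. None rose with shDDX41 #1 in edgeR, DESeq2 or limma, nor at an unadjusted p under 0.05 (0 of 8). The falls with shDDX41 #2 were 1 without sh-Control A or B or shDDX41 #2 B or D, and 0 without shDDX41 #2 A. SORL1, a sorting receptor, rose by 1.13 with shDDX41 #2 (adjusted p = 5.86e-07), and LRP8, the receptor closest to VLDLR, fell by 0.64 and 0.40.

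**Figure D4:**
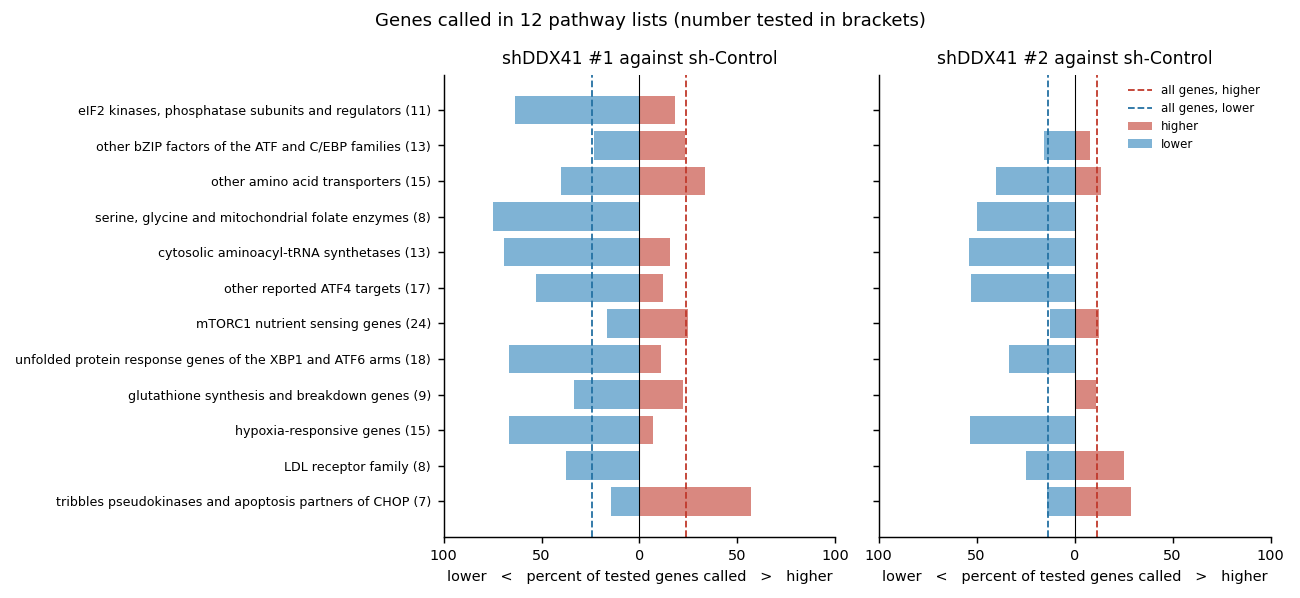
Percent of the tested genes of each list that were called lower (blue, to the left) or higher (red, to the right) against sh-Control, for shDDX41 #1 and shDDX41 #2. Dashed lines mark the percent of all tested genes called in each direction. The bars of the serine and folate enzymes (6 and 4 of 8 lower) reach past the dashed line on the left for both hairpins and have none on the right.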

How the data were processed

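RNA was sequenced by the authors from sorted MOLM13 cells with 3 libraries per group. The deposited table holds raw counts per gene symbol, not normalized. Per the submitters' processing notes, FastQC 0.11.7, HISAT2 2.0.5 and featureCounts 1.5.2 were used. The notes name a human and a mouse genome build without their roles, and the annotation and handling of shared reads are not given in the sources used here. The 9 columns were matched to libraries by their labels, with 0 columns unmapped.

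The tests used edgeR 4.0.16 in R 4.3.3 (filterByExpr with a minimum count of 10, TMM, quasi-likelihood test with 1 coefficient per group over all 9 libraries, two-sided, Benjamini-Hochberg adjustment per comparison). The SE is the size of the log2 fold change divided by the square root of F. Intervals take 1.96 SE on each side, a normal approximation to 95% that is narrower than the F test would give. For ATF4 with shDDX41 #1 the interval ran from 0.01 to 0.28, beside an adjusted p of 0.102 in edgeR. Depth was 16385238 to 20510032 counts, with a biological coefficient of variation of 0.0768. An exact permutation test of 3 against 3 cannot go below 0.1. No 2 libraries of a group agreed within counting noise. On simulated data for shDDX41 #1 against sh-Control (12564 genes tested), 87% of 2-fold and 72% of 1.5-fold changes were recovered. Of 2-fold changes at 5 CPM or more 100% were recovered, and 7.56% of calls were false. Only 200 genes were changed in the simulation, whereas 6078 were called in the data, so these rates need not carry over. The pass mark was set to changes at 5 CPM or more after an overall mark had been missed.

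The genes described and the lists were chosen with earlier results of these data known. The genes named were the 10 genes, DDX41, for each list and hairpin up to 3 called genes with the largest change, and the 3 genes (5 for ATF4) with the highest correlation. The values of CD14, LYZ, NKG7 and KRT18, and the other markers named, come from the marker lists. Alternatives were DESeq2 1.42.0 (size factors and Wald test), upper quartile or no factors, no filter or 10 counts in every library, limma 3.58.1 voom, the 6 libraries compared, a replicate block, each library left out, an adjusted p under 0.01 and a prior count of 0.5. The result of 1 further marker is not reported here.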

Additional observations from a re-analysis of the deposited data

Results flagged for a closer look

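The test between the hairpins singled out 8 of the 10 genes, meaning that the effects of the 2 hairpins against the shared sh-Control libraries differed. The log2 difference, shDDX41 #1 minus shDDX41 #2, was 0.40 for ATF4, 1.25 for DDIT3, 0.42 for DDIT4, -0.30 for ASNS, 0.34 for CHAC1, 0.56 for SLC3A2, 0.20 for CEBPG and 0.55 for VLDLR. Adjusted p-values in edgeR ran from 2.31e-06 for DDIT3 to 0.0252 for CEBPG. In the same comparison 48.8% of all tested genes were called. Groups of 3 libraries were not tested for single outlying libraries.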

How the results depend on the processing

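The count of genes called among the 10 stayed within 1.5 times under every setting tried. It ran from 4 to 7 for shDDX41 #1, from 7 to 10 for shDDX41 #2 and from 6 to 8 between the hairpins. Of 540 single gene results under alternatives, 511 kept their direction and side of the threshold, 18 lost and 10 gained the call, and 1 changed sign. That was CEBPG with shDDX41 #1, whose log2 fold change was 0.0303 under upper quartile factors (adjusted p = 0.737). DDIT4, ASNS, TRIB3 and SLC3A2 kept every call. For all genes with shDDX41 #2, 1670 were called at an adjusted p under 0.01 against 3174, and leaving out 1 library gave 2054 (without shDDX41 #2 B) to 4248 (without shDDX41 #1 D). The cause was not tested. Upper quartile factors moved the median of all genes with shDDX41 #1 from 0.012 to 0.087. No source used here says whether the replicate letters pair the libraries. Same-letter deviations correlated at 0.07, 0.16 and 0.24 between shDDX41 #1 and sh-Control and at -0.06 to 0.02 in the comparisons with shDDX41 #2. No values for unlike letters were computed beside them, so they do not settle whether the libraries are paired. The fit reported here did not treat the libraries as pairs. With a replicate block 7, 9 and 8 of the 10 genes and 6351, 3570 and 6503 of all genes were called, and DDIT3 passed with shDDX41 #1 (adjusted p = 0.0396). A prior count of 0.5 kept all 32 genes named for likeness. The 2-fold changes missed in simulation had a median level of 0.867 CPM, below the level of all 10 genes. Against sh-Control, however, none of the 10 genes changed by 2-fold, and DDIT3 came nearest (-0.96 on the log2 scale with shDDX41 #2). Of the simulated 1.5-fold changes 72% were recovered, and smaller changes were not simulated.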
